A study of Rattus norvegicus with 30 samples.

Results

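The wells described here are the 10 that received 8 µM WY-14643, the low dose, chosen by their labels: 5 were harvested 48 h after dosing and 5 at 24 h, out of 30 wells in the study. WY-14643, also called pirinixic acid, is a synthetic compound that activates PPARα, a nuclear receptor. The cells were purchased, cryopreserved hepatocytes of male Sprague Dawley rats, plated on collagen under a Matrigel overlay and dosed once, on day 3 of culture. The other 20 wells, used here for comparison, received 200 µM WY-14643 or vehicle, labelled 1% DMSO, at 48 h and at 24 h, with 5 wells in each group. Every group shared the culture format and the male donor stock, and whether treated medium held the same DMSO as vehicle medium is not certain from the labels. The wells are called separate biological replicates, but the labels do not say whether more than 1 animal was used, and errors and p-values below therefore measure the spread between wells. A culture of this kind has no liver circulation and, besides hepatocytes, whatever other cells came through the isolation. In such bulk RNA, fewer cells of a type and less RNA per cell cannot be told apart.

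PPARα is a lipid sensor. When a fatty acid or a synthetic agonist binds it, it pairs with the retinoid X receptor on DNA and switches on genes for taking up, binding, activating and oxidising fatty acids in mitochondria and peroxisomes, and in rodents it makes peroxisomes multiply. In liver it is also known to lower the expression of many plasma protein and inflammatory genes. Plated hepatocytes lose specialised functions with time whether or not a drug is present, above all their cytochromes P450. The comparison asks which transcripts went on changing during a second day under the low dose.

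Each RNA was read on an Affymetrix rat array as MAS5 signals, a linear fluorescence value per probe set. The median probe set signal of the 10 arrays lay between 389 and 423, and correlations of log2 signal between arrays were 0.975 to 0.980 within a group and 0.967 to 0.972 between the times. The ratio of 3′ to 5′ signal of β-actin, which can reflect RNA length and labelling, was 3.26 ± 0.417 at 48 h and 3.10 ± 0.214 at 24 h (SD, n = 5 each, two-sided exact permutation p = 0.484). Hepatocyte markers were abundant at both times, but 7 of 15 measured fell and none rose, against 7.88% and 9.17% of all genes, and their summed signal was 657843 to 750747 at 48 h, against 770846 to 841472 at 24 h. Of the 2 best known, albumin (Alb) signals were 72493, 81513, 74522, 70052 and 65030.0 at 48 h, against 70036, 76627, 75417, 68650.3 and 70622 at 24 h, and transthyretin (Ttr) averaged 62547 ± 4369.9 at 48 h and 63364 ± 2786 at 24 h (SD, n = 5), and neither passed the test. One vehicle array at 48 h, replicate 4, stood apart with a median signal of 765, so counts and list medians that use vehicle are in most places also given without it. Vehicle values of single genes use all 5 vehicle arrays per time unless stated.

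Of 11546 genes tested, 1969 changed between 24 h and 48 h at 8 µM, 17.1% of those tested, by limma with Benjamini-Hochberg adjustment and a threshold of 0.05. In the 48 h wells 1059 genes were higher (9.17%) and 910 were lower (7.88%). For 852 genes all 5 arrays at 48 h lay above all 5 at 24 h (7.38%), and for 735 they lay below (6.37%). Most changes were small: 230 genes rose and 186 fell by at least 1.5-fold, and 67 rose and 79 fell by at least 2-fold. The words rose, fell and changed are kept for genes that passed this test, and log2 fold changes, 48 h over 24 h, are given with their standard error.

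Time alone also moved genes. In vehicle wells, fitted on their own, 170 genes were higher at 48 h than at 24 h (1.47%) and 172 were lower (1.49%), and without the array that stood apart these counts were 542 (4.69%) and 383 (3.32%). In 200 µM wells 988 genes were higher (8.56%) and 833 were lower (7.21%). Across the 11546 genes the 8 µM changes correlated with the 200 µM changes at Pearson r = 0.615 and with the vehicle changes at r = 0.365, or 0.394 without the array that stood apart. These are descriptions, since genes of one array share its RNA and labelling. Tested directly, the time change at 8 µM was above that of vehicle for 108 genes (0.935%) and below it for 97 (0.84%). Without the array that stood apart the counts were 211 (1.83%) and 250 (2.17%). With every array centred on its median they were 8 and 3 over all arrays. Those 11 were Il1r2, Cyp2c11 and Npy below vehicle and Scd2, Eno2, Fads2, Fabp1, Abhd5, Aqp7, Cyp17a1 and Spc24 above it, so every other single difference from vehicle called below was lost with this centring. With the same centring and without the array that stood apart, an alternative chosen after seeing the data, 128 genes were above vehicle and 192 below, and every difference from vehicle called below for a single gene by name passed. Against 200 µM, 8 genes had a higher time change (0.0693%) and 12 a lower one (0.104%).

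**Figure D1:**
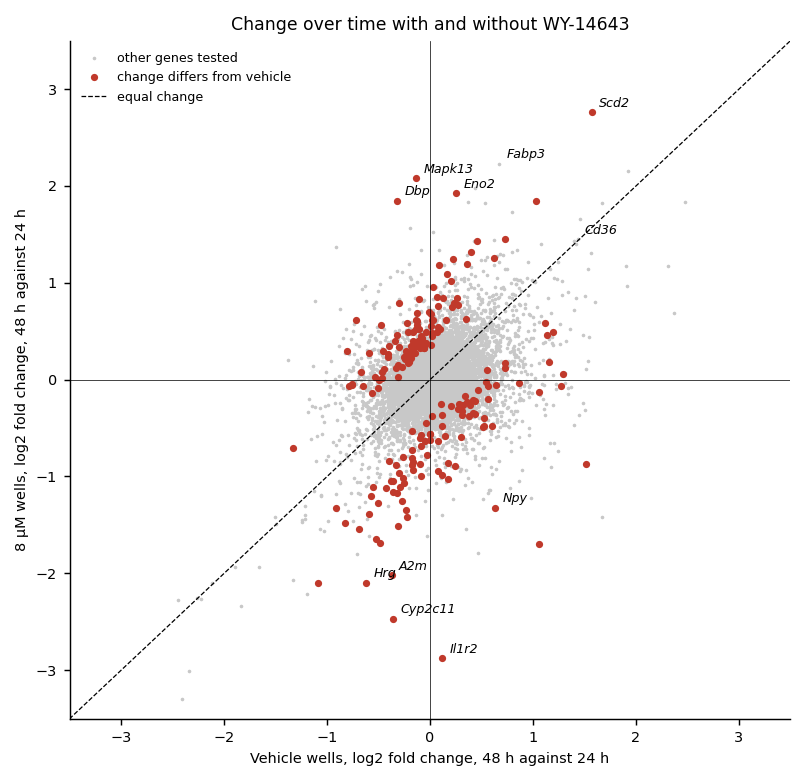
Each point is a gene; the vertical axis is its log2 fold change from 24 h to 48 h in 8 µM wells and the horizontal axis the same in vehicle wells (all 5 vehicle arrays per time), with the 205 genes whose changes differed by the test in red. Scd2 lies highest and above the diagonal, Cd36 lies on the diagonal, and Il1r2, Cyp2c11, A2m and Hrg lie low while their vehicle changes are near 0 or smaller.

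The largest rise at 48 h was that of Scd2, a stearoyl-CoA desaturase that makes monounsaturated fatty acids. Its signals were 3707, 3049.9, 3373, 3916 and 3298 at 48 h, against 613, 455, 481, 416 and 531 at 24 h. Every 48 h well was above every 24 h well, for a log2 fold change of 2.76 ± 0.11 (adjusted p = 2.13e-10). Vehicle wells also rose, by 1.57, and the 8 µM change exceeded theirs by 1.20 ± 0.19 (adjusted p = 0.000496). Further probe sets annotated to Scd2 gave 0.17 and 0.61 and did not pass, and rat stearoyl-CoA desaturases are close relatives, so which copy was read is uncertain.

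Fabp3, the heart-type fatty acid binding protein and an established PPARα target, came next. It had signals of 14317, 15993, 15607, 15349.9 and 13412 at 48 h, against 2831, 3191, 3115, 3135 and 3592 at 24 h. All 48 h wells were several times brighter than any 24 h well, a log2 fold change of 2.23 ± 0.07 (adjusted p = 1.32e-11), and the rise was steeper than at 200 µM by 0.47 ± 0.09 (adjusted p = 0.0189), a difference that did not pass in 8 of 28 alternatives. Vehicle wells changed by 0.67, and the difference from vehicle did not pass (adjusted p = 0.0707, or 0.0596 without the array that stood apart). Eno2, an enolase best known from neurons, had 6869, 4252, 5696, 5024 and 3072 at 48 h, against 1359.5, 1134, 1097, 1154 and 1579 at 24 h. The groups did not overlap (1.93 ± 0.17, adjusted p = 8.44e-07), and vehicle wells changed by 0.26 without passing, a difference of 1.67 (adjusted p = 0.00023). Dbp, a clock-controlled transcription factor, had 599, 684, 485, 554 and 701 at 48 h, against 131, 185, 133, 108 and 253 at 24 h, again without overlap (1.85 ± 0.23, or 1.59 to 2.01 over its alternatives), whereas vehicle wells changed by -0.32 (difference adjusted p = 0.00974). Mapk13, a p38 kinase, gave 408, 430.0, 262, 355 and 566 at 48 h, against 94.8, 72.8, 75.3, 82.3 and 79.2 at 24 h (2.08 ± 0.29). All 24 h values of Dbp and Mapk13 lay below the detection filter of 281 described under the processing, so the size of both rises depends on the pseudocount of 16 added before taking log2, and for Mapk13 it was 1.66 to 2.27 over its alternatives.

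Others among the 15 largest rises were the desaturase Fads1 (log2 fold change 1.84 ± 0.10), the skeletal muscle actin Acta1 (2.15), the membrane skeleton protein Epb41l3 (1.98), the serine protease Prss23 (1.73), the clathrin adaptor Snap91 (1.84), Tsx (1.83), Rad9b (1.83), β-synuclein Sncb (1.66), the phosphatase Ppm1j (1.57) and protein kinase C beta, Prkcb (1.45). All passed the test without overlap between the times. Acta1 and Tsx rose in vehicle wells too, by 1.92 and 2.47. Of these 10 genes Fads1 and Prkcb differed from vehicle by the test, and the other 8 did not (Epb41l3 adjusted p = 0.102, Prss23 0.13, Ppm1j 0.11). Over 28 alternatives the difference did not pass in 1 for Fads1, 10 for Prkcb, 23 for Epb41l3 and 24 for Prss23. With median centring and without the array that stood apart, the alternative chosen after seeing the data, Epb41l3 and Prss23 passed (adjusted p = 0.0306 and 0.00404). All 24 h values of Snap91 and Rad9b, 4 of the 5 of Sncb and 3 of the 5 of Epb41l3 lay below the detection filter. The other probe set of Sncb changed by 0.01 and did not pass.

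**Figure D2:**
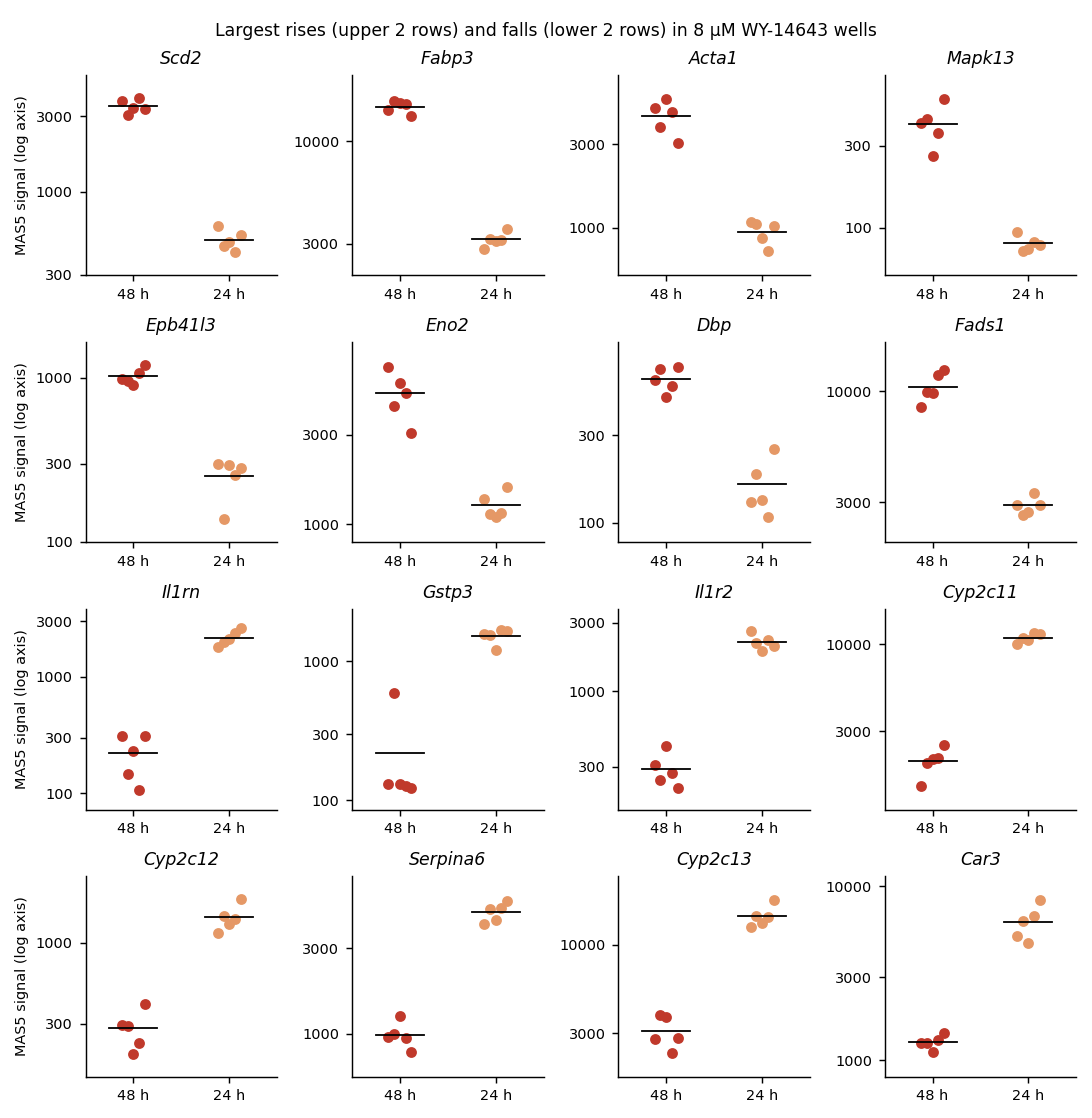
MAS5 signal, on a log axis, of the 8 largest rises (upper rows) and 8 largest falls (lower rows) in 8 µM wells, with each point a well (n = 5 per time, 48 h left, 24 h right) and the bar the mean. In all 16 genes the wells of the 2 times do not overlap, and Gstp3 has 1 well at 48 h, at 589, apart from the other 4.

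Genes that build cholesterol rose together. Of 20 measured members of the pathway 15 rose and 1 fell, against 9.17% and 7.88% of all genes, and the median log2 fold change was 0.44 against 0.00 over all genes (0.18 in vehicle wells, or 0.25 without the array that stood apart). Squalene epoxidase (Sqle), which oxidises squalene on the way to the sterol rings, had signals of 9985, 9114, 8241, 9141 and 8298 at 48 h, against 4927, 4774, 4989, 4089 and 5921 at 24 h. Each 48 h well exceeded each 24 h well (0.86 ± 0.08, adjusted p = 2.24e-06). Lanosterol synthase (Lss), which closes those rings, had 4094, 4108, 3863, 4228 and 4100.1 at 48 h, against 2352, 2252, 2385, 2277 and 2879 at 24 h, a log2 fold change of 0.75 ± 0.07, and its rise was above that of vehicle by 0.53 (adjusted p = 0.0274). Sterol-C5-desaturase (Sc5d) rose by 0.52 and its change was likewise above that of vehicle (adjusted p = 0.0216). Of the 20 members only these 2 were above vehicle by the test, and the count was also 2 without the array that stood apart (0.935% and 1.83% of all genes). With median centring over all arrays it was 0. The remaining risers ran from 0.25 for the sterol dehydrogenase Nsdhl to 0.67 for the lanosterol demethylase Cyp51. Insig2, which holds the sterol sensor in the ER, fell by 0.44 ± 0.08, and the transcription factor Srebf2 changed by -0.13 without passing (adjusted p = 0.388).

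Fatty acid and triglyceride synthesis moved in the same direction, with 11 of 22 measured members higher and none lower, against 9.17% and 7.88% of all genes (median 0.23 at 8 µM, and -0.09 in vehicle or 0.00 without the array that stood apart). For 6 members the change was above that of vehicle, and without that array for 10 (0.935% and 1.83% of all genes). With median centring over all arrays it was 2, and 8 when the array that stood apart was also left out, the alternative chosen after seeing the data. Fatty acid synthase (Fasn) had 3551, 3597, 3959, 4203 and 4676 at 48 h, against 2575, 2104, 2398, 2580.4 and 2389 at 24 h, with no overlap (0.72 ± 0.08). The desaturase Fads2 rose by 1.09 ± 0.12, the malic enzyme Me1 by 0.57 ± 0.06, Insig1 by 0.43 ± 0.05 and the acyltransferase Agpat2 by 0.35 ± 0.04. The lipogenic regulator Srebf1 changed by 0.08 and did not pass.

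The 5 genes of this paragraph, picked by name as well-known PPARα targets, already stood high at 24 h and did not pass between the times. Cyp4a1, the fatty acid ω-hydroxylase, had signals of 78996, 80377, 74137, 68328 and 74729.6 at 48 h, against 64632, 68417, 74552, 70907 and 68888 at 24 h, overlapping values with a log2 fold change of 0.12 ± 0.05 (adjusted p = 0.116). The same wells at 24 h stood 3.82 in log2 above 24 h vehicle. Vehicle wells rose by 0.73 between the times, so the time change at 8 µM minus that of vehicle was -0.62 (adjusted p = 0.0175). Pdk4, the kinase that restrains pyruvate oxidation, changed by 0.03 ± 0.04 between the times (adjusted p = 0.684) and stood 3.47 above vehicle at 24 h. For Cpt1a, the carnitine palmitoyltransferase at the mitochondrial gate, those values were -0.17 ± 0.09 (adjusted p = 0.248) and 2.83. Acsl1, the long-chain acyl-CoA synthetase, gave 0.05 ± 0.04 and 3.02, and Angptl4, a lipoprotein lipase inhibitor, -0.05 ± 0.04 and 2.28. The 24 h arrays enter both values of each pair. A p-value above the threshold does not show that a level stood still. The standard errors of these 5 genes were 0.04 to 0.09, against a median of 0.106 over all genes, and the power for them was not computed.

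Other induced genes did rise further, among them Cpt1b, Acadm and Ehhadh, which at 24 h stood 3.37, 1.83 and 5.25 above vehicle. In mitochondrial oxidation 8 of 20 measured genes rose and none fell (median 0.12). This count and those of the next lists stand against 9.17% of all genes rising and 7.88% falling. The mitochondrial risers included the muscle-type carnitine palmitoyltransferase Cpt1b (0.73 ± 0.07) and the acyl-CoA dehydrogenases Acadm (0.45 ± 0.06) and Acads (0.33 ± 0.06). In the peroxisomal list 5 of 15 rose, led by the bifunctional enzyme Ehhadh (0.45 ± 0.08) and carnitine acetyltransferase Crat (0.45 ± 0.06), and 2 fell. Ehhadh did not pass in a fit of all 30 arrays (adjusted p = 0.0811). Of 9 acyl-CoA thioesterases, which release free fatty acids from their coenzyme, 6 rose, by 0.17 to 0.36. Acot1 had 52168, 54172, 51342, 52101 and 54959 at 48 h, against 46407, 48755, 45736, 47765 and 46689.5 at 24 h, without overlap, for a log2 fold change of 0.17 ± 0.03. In vehicle wells Acot1 changed by 1.06 without passing, and the difference from vehicle did not pass (adjusted p = 0.654). In a fit of all 30 arrays the thioesterase list had 2 risers. Microsomal ω-oxidation had no riser and 1 faller among 9. The change was above that of vehicle for 2 of the 20 mitochondrial, 1 of the 15 peroxisomal and 0 of the 9 thioesterase genes (0.935% of all genes). Without the array that stood apart these counts were 4, 1 and 0 (1.83% of all genes). With median centring over all arrays each was 0. The difference of Cpt1b from vehicle did not pass (0.50, adjusted p = 0.247), but passed without that array (adjusted p = 0.0167).

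Of 19 genes that take up, bind or activate fatty acids, 8 were risers and 2 fallers, against 9.17% and 7.88% of all genes. Without 24 h replicate 3, or without 48 h replicate 4, the count of risers was 5. Liver fatty acid binding protein (Fabp1) had 78706, 87585, 80022, 74845 and 83609 at 48 h, against 49452, 52424, 51104, 50826 and 60495 at 24 h. These did not overlap (0.62 ± 0.05), while in vehicle wells Fabp1 fell (-0.72, adjusted p = 0.000864), a difference of 1.33 (adjusted p = 4.27e-07). The fatty acid translocase Cd36 rose by 1.45 ± 0.09 and by nearly as much in vehicle, 1.43. The adipocyte-type Fabp4 changed by -0.14 at 8 µM and did not pass (adjusted p = 0.479), while it fell by 0.98 at 200 µM (adjusted p of the difference 0.0189).

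The glycerol channel Aqp7 had 19338, 21784, 20345, 21911 and 23684 at 48 h, against 7599.7, 8021, 8883, 7599 and 7492 at 24 h, with every 48 h well above every 24 h well (1.43 ± 0.06), and the change exceeded that of vehicle by 0.98 (adjusted p = 2.39e-05). Aqp3, another water and glycerol channel, rose by 1.14 ± 0.11. In vehicle Aqp3 changed by 0.73 without passing, and the difference did not pass (adjusted p = 0.727, or 0.101 without the array that stood apart). Aqp9, the channel through which liver takes up glycerol, went the other way, with 830.0, 953, 859.7, 903 and 994 at 48 h, against 1681, 1678, 1805, 1656 and 1941 at 24 h (-0.94 ± 0.08). At 200 µM Aqp9 changed by -0.20 without passing, and the 2 doses differed by -0.74 ± 0.13 (adjusted p = 0.00629).

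Of 20 measured lipid droplet and lipolysis genes 6 rose and 4 fell, against 9.17% and 7.88% of all genes. Abhd5, the coactivator of adipose triglyceride lipase, had 11608, 11041, 10966, 10082 and 9605 at 48 h, against 4601, 4580.1, 4711, 4766 and 4675 at 24 h. That rise (1.19 ± 0.05) exceeded the one in vehicle by 1.10 (adjusted p = 1.01e-07) and the one at 200 µM by 0.42 (adjusted p = 0.0176). The lipase-family protein Pnpla3 rose by 1.32 ± 0.13. One of its 2 other probe sets passed as well (1.60) and one did not (0.31). Hormone-sensitive lipase (Lipe) and hepatic lipase (Lipc) fell (-0.89 ± 0.13 and -0.49 ± 0.07). The droplet coat protein Plin2 gave 0.01 and did not pass.

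Cytochromes P450 of families 1 to 3, which metabolise drugs and steroids, had 16 fallers and no riser among 24 measured genes (7.88% and 9.17% of all genes), with a median of -0.41 at 8 µM, -0.39 at 200 µM and -0.48 in vehicle, or -0.28 in vehicle without the array that stood apart. Cyp2c11, the major male-specific form in rat liver, had 1409.8, 1924, 2039.5, 2058 and 2495 at 48 h, against 9983, 10815, 10540.0, 11717 and 11475 at 24 h. The groups did not overlap (-2.47 ± 0.11, adjusted p = 7.24e-10). In vehicle wells Cyp2c11 changed by -0.36, which did not pass, and the difference of the changes was -2.11 ± 0.20 (adjusted p = 5.48e-07), and it was -1.05 against 200 µM (adjusted p = 0.0089). Cyp1a2, which metabolises caffeine, had 2219, 2254, 2662, 2099 and 2451 at 48 h, against 9059.6, 9007, 9981, 10543 and 12046 at 24 h, a change of -2.10 ± 0.08 against -1.09 in vehicle (difference adjusted p = 6.01e-06).

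Other members of these families also fell in vehicle wells. Cyp2c13 had 2790.3, 3854, 3731, 2306 and 2821 at 48 h, against 12668, 14809, 13557, 14664 and 18410.3 at 24 h, or -2.27 ± 0.13, and -2.22 in vehicle. Cyp3a2 changed by -2.10 ± 0.13, against -2.12 in vehicle, and Cyp2c7 and Cyp2c12 fell too (-1.94 and -2.33, against -1.66 and -1.84 in vehicle). None of these 4 differed from vehicle by the test. Members of the 2C subfamily are similar in sequence, and probe sets may not separate them fully. Cyp2e1, the ethanol-metabolising form, changed by -0.83 ± 0.11 at 8 µM, close to -0.77 in vehicle, while at 200 µM it changed by -0.10 without passing (doses differ by -0.73, adjusted p = 0.0189).

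Plasma protein genes fell broadly. Of 22 measured acute phase proteins 16 fell and none rose, against 7.88% and 9.17% of all genes. Their median was -0.60 at 8 µM, -0.53 at 200 µM and -0.26 in vehicle, or -0.16 in vehicle without the array that stood apart. The change lay below that of vehicle for 6 of the 22, and for 9 without that array (0.84% and 2.17% of all genes), but for none with median centring over all arrays. With that centring and without the array that stood apart, the alternative chosen after seeing the data, it lay below for 9. Alpha-2-macroglobulin (A2m), a protease inhibitor that rises strongly in rat inflammation, had 16583, 15914, 16775, 11699 and 10484 at 48 h, against 58572, 60081, 54901, 54453 and 56576 at 24 h. The times did not overlap (-2.02 ± 0.11), and the change minus that of vehicle was -1.65 ± 0.16 (adjusted p = 6.84e-07). The fibrinogen chain Fgb had 30274, 35542, 36214, 30138 and 30938 at 48 h, against 66456, 73091, 69337, 70362 and 71949 at 24 h, a change of -1.11 ± 0.05, a deeper fall than the one at 200 µM (-0.71, difference adjusted p = 0.0161) and the change in vehicle (-0.29, difference adjusted p = 0.000328). A second Fgb probe set changed by -0.07 and did not pass. Ceruloplasmin (Cp), which carries copper, fell (-1.17 ± 0.09), and so did Serpina3n (-1.05 ± 0.06) and the inter-alpha-trypsin inhibitor chain Itih4 (-1.02 ± 0.06). Other Cp probe sets changed by -0.90, which passed, and by -0.30, which did not. Haptoglobin (Hp) and Orm1, both abundant acute phase proteins, gave -0.03 and 0.02 and did not pass, and C-reactive protein (Crp) gave -0.17.

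The deepest fall past the test was that of Il1rn, the secreted antagonist of the interleukin 1 receptor. Its signals were 311, 146, 232, 106 and 311 at 48 h, against 1805, 2006, 2098, 2369 and 2619.5 at 24 h (-3.30 ± 0.24, adjusted p = 8.74e-08), and vehicle wells changed by -2.41, a difference of -0.89 that did not pass (adjusted p = 0.298) and passed without the array that stood apart (adjusted p = 0.0203). Gstp3, a glutathione transferase of the pi class, followed with 130.3, 589, 131, 126 and 122 at 48 h, against 1564, 1554, 1201, 1672 and 1651 at 24 h (-3.00 ± 0.33). Because 4 of its 5 values at 48 h lay below the detection filter, the size of this fall depends on the pseudocount, and it was -3.42 to -2.69 over its alternatives. Il1r2, the decoy receptor for the same cytokine, differed from vehicle most. Its signals were 310.4, 242, 419.7, 269 and 214 at 48 h, against 2637, 2176, 1892, 2254 and 2053 at 24 h. At 8 µM it fell by 2.88 ± 0.16, while vehicle wells changed by 0.12 (adjusted p = 0.756), a difference of -3.00 ± 0.22 (adjusted p = 5.38e-09). At 200 µM it fell by 2.30. The Il1rn signals of 146, 232 and 106 and the Il1r2 signals of 242, 269 and 214 also lay below the detection filter. Over the alternatives Il1rn changed by -3.44 to -3.03 and Il1r2 by -3.02 to -2.69. The difference of Il1r2 from vehicle was -3.15 to -2.81.

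Complement and coagulation genes showed 19 fallers and 1 riser among 30, where 7.88% of all genes fell and 9.17% rose. Their median was -0.36 at 8 µM and -0.35 in vehicle, or -0.25 in vehicle without the array that stood apart. Complement C6 fell furthest (-1.69 ± 0.21). Histidine-rich glycoprotein (Hrg), which no list held, had 3919, 3985, 3965, 3249.7 and 4309 at 48 h, against 14778, 15541, 16479, 16516 and 20081 at 24 h. It fell by 2.10 ± 0.08, and its change minus that of vehicle was -1.48 (adjusted p = 3.14e-06). Complement C9 (-1.32 ± 0.08) and C3 (-0.97 ± 0.07) fell, and the complement factor Cfd rose by 0.97 ± 0.11. Of 20 genes for apolipoproteins and lipoprotein handling 10 fell and 1 rose. Apoa2 had 15766, 15894, 18092, 13739 and 14756 at 48 h, against 38254, 45352, 43995, 42425 and 45760.0 at 24 h (-1.47 ± 0.07) and fell nearly as much in vehicle (-1.24). Apoa5, which regulates plasma triglyceride, fell by 0.86 ± 0.06 while vehicle wells changed by 0.18 (difference adjusted p = 2.6e-05), and Apoa1 gave -0.05, which did not pass. Corticosteroid-binding globulin (Serpina6) and carbonic anhydrase Car3 fell (-2.27 and -2.26), as they did in vehicle (-2.45 and -2.26).

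**Figure D3:**
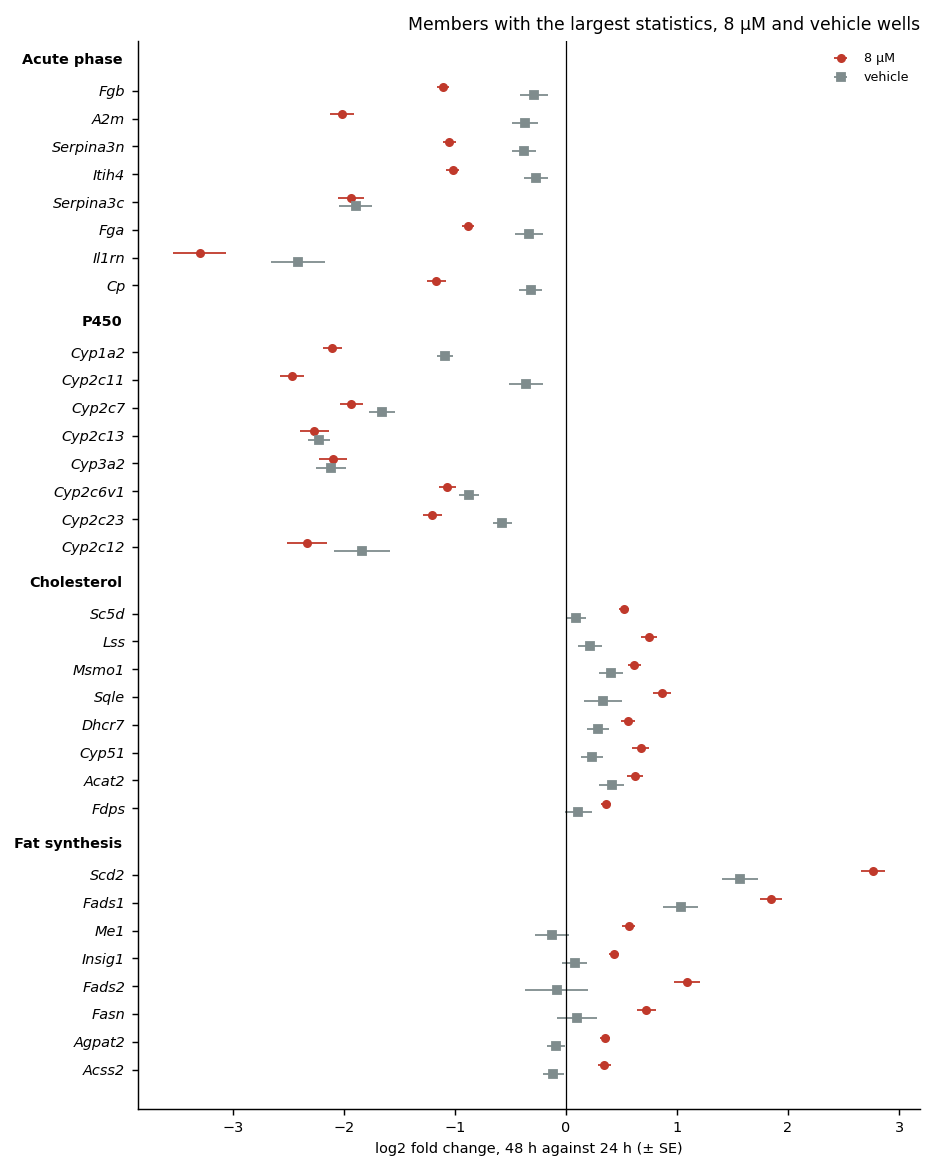
Log2 fold change from 24 h to 48 h (± SE) in 8 µM wells (circles) and vehicle wells (squares, all 5 arrays per time) for the 8 members with the largest moderated statistics in each of 4 lists. A2m, Fgb and Cyp2c11 are far lower at 8 µM than in vehicle, Cyp2c13, Cyp3a2 and Serpina3c coincide, and Scd2 and Fads1 are higher at 8 µM.

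Chaperones of the endoplasmic reticulum, which fold secreted proteins, declined. Of 25 measured members of this list and the unfolded protein response 15 fell and 1 rose, against 7.88% and 9.17% of all genes. Their median was -0.21 at 8 µM, -0.08 at 200 µM and -0.20 in vehicle, or -0.13 in vehicle without the array that stood apart. The change lay below that of vehicle for 1 of the 25, and also for 1 without that array (0.84% and 2.17% of all genes), but for 0 with median centring over all arrays. Sdf2l1, a luminal chaperone partner, had 1886, 2096, 1896, 2260.3 and 1984 at 48 h, against 2716, 3250.1, 3152, 3127 and 3474 at 24 h, no overlap and a change of -0.63 ± 0.08. At 200 µM it rose by 0.64, so the 2 doses differed by -1.27 ± 0.16 (adjusted p = 0.000367). The same opposition held for the lectin chaperone calreticulin (Calr, -0.30 at 8 µM and 0.25 at 200 µM) and the disulfide isomerases Pdia3 (-0.26 and 0.24) and Pdia6 (-0.19 and 0.23). Dnajc3 gave -0.14 at 8 µM, which did not pass, and 0.28 at 200 µM. These 5 were the members of the list that differed between doses, 5 of 25, where 0.0693% of all genes differed upwards and 0.104% downwards. Creld2 fell by 0.77 ± 0.09, and the transcription factor Xbp1, which drives many of these genes, fell by 0.53 ± 0.04 with signals of 9088, 9636, 9345, 9005 and 9687 at 48 h, against 12995, 13553, 13305, 13509.5 and 14383 at 24 h.

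Some promoters of the fallen ER genes hold a known short element, and their sequences are shown for it. The endoplasmic reticulum stress element, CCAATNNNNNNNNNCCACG, is the textbook site through which ATF6 acts in this response. It was sought on both strands from 250 bases before to 50 bases after each gene's start, in RefSeq sequence of build GRCr8. Of the 15 fallen genes 11 had a promoter in that table, and 5 of these held the element, against 22 of 33469 promoters overall (0.0657%) and 15 of the 9625 of tested genes (0.156%). It also stood in 2 of the 8 members with a promoter that did not pass. The 5 are printed 5′ to 3′ along the gene, with the element, on either strand, in capitals.
Hspa5 (chr3:38452766-38453065, plus strand): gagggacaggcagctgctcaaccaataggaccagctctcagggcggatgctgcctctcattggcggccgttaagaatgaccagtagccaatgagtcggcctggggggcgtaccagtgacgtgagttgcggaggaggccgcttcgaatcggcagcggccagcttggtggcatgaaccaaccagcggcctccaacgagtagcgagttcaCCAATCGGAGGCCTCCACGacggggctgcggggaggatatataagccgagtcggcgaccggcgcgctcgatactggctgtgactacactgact
Xbp1 (chr14:84604373-84604672, plus strand): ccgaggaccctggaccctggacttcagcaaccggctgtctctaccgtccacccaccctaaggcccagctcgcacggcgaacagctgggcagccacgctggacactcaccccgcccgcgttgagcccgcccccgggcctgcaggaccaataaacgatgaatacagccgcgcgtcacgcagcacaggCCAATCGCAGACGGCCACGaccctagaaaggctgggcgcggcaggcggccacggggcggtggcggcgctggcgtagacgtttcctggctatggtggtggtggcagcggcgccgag
Calr (chr19:40213117-40213416, plus strand): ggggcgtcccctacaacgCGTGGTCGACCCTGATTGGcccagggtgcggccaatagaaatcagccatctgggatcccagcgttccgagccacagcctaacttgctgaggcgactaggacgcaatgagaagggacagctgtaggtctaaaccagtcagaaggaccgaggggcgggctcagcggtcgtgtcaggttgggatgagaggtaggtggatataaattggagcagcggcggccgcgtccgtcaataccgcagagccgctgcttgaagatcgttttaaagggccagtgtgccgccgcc
Creld2 (chr7:121789134-121789433, plus strand): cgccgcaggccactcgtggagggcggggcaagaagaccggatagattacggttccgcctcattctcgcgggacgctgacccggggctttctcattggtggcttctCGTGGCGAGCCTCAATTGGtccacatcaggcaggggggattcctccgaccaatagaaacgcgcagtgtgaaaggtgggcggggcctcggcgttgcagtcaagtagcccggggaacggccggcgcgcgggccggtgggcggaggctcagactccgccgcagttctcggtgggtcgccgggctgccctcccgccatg
Hsp90b1 (chr7:23012244-23012543, minus strand): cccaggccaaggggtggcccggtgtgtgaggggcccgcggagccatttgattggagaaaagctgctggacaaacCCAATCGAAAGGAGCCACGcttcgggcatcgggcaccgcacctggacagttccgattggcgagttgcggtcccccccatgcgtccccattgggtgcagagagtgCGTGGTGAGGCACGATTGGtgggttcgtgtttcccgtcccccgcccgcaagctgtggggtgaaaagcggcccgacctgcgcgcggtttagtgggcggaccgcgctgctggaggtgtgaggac
Hsp90b1 holds 2 copies in opposite directions, and Calr and Creld2 hold theirs on the opposite strand. A match is a description of letters and not a bound site. The changes of the 5 at 8 µM were -0.17, -0.53, -0.30, -0.77 and -0.25 in this order. The CCAAT letters alone, which form part of the element, are in 10 of the 11 fallen genes' promoters, in all 8 of the members that did not pass, in that of the 1 riser and in 37.5% of all promoters. A sterol regulatory element, TCACNCCAC, was sought in the same way for cholesterol synthesis and was in 0 of the 12 risers with a promoter, against 1.12% of all promoters.

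**Figure D4:**
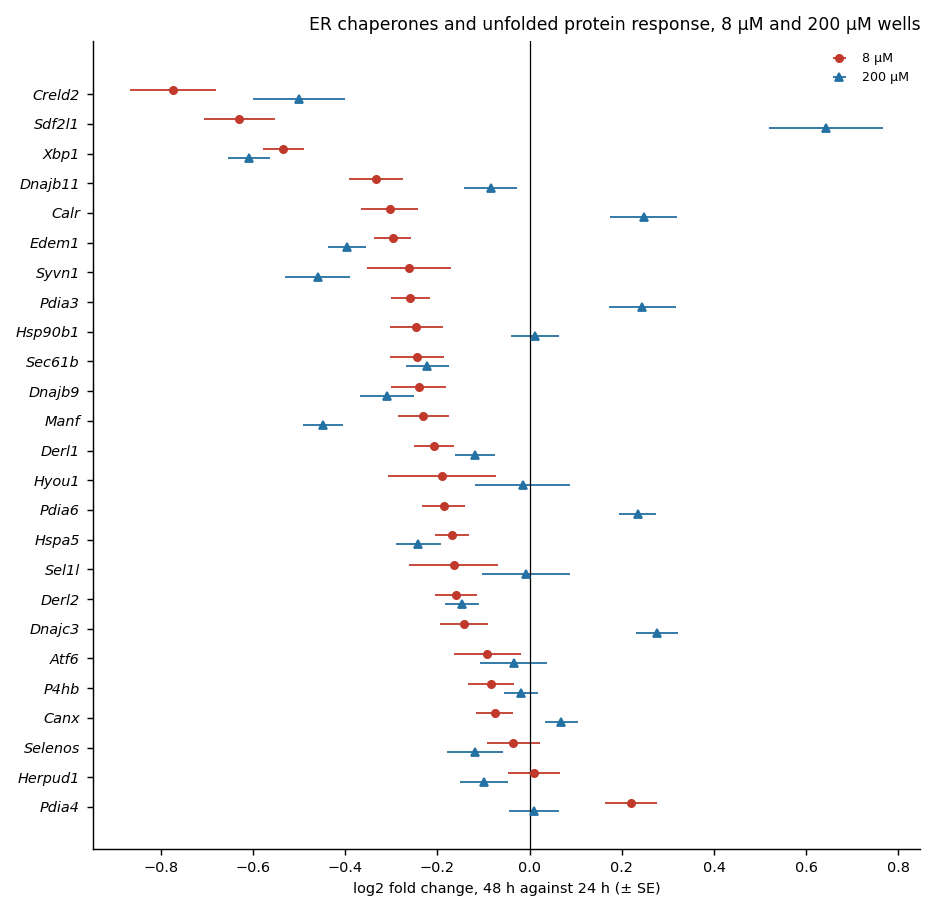
Log2 fold change from 24 h to 48 h (± SE) of the 25 measured ER chaperone and unfolded protein response genes in 8 µM wells (circles) and 200 µM wells (triangles), ordered by the 8 µM value. Most circles lie left of 0, and Sdf2l1, Calr, Pdia3, Pdia6 and Dnajc3 have triangles to the right of 0.

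Interferon and inflammation genes formed another falling group, with 13 of 38 lower and 1 higher, against 7.88% and 9.17% of all genes. Their median was -0.21, and -0.17 in vehicle or -0.10 without the array that stood apart. The interferon-induced synthetase Oas1a had 513, 535, 643, 698 and 611 at 48 h, against 1769.6, 1777, 1372, 1449 and 2033 at 24 h, without overlap (-1.46 ± 0.12, adjusted p = 5.8e-07). The ubiquitin-like modifier Isg15 had 2453, 3178, 2733, 2666 and 1898 at 48 h, against 7848, 7476, 5251, 6958 and 7604 at 24 h, also without overlap (-1.44 ± 0.13). Its protease Usp18 (-1.32 ± 0.13), the regulator Irf7 (-1.06 ± 0.07) and Mx2 (-1.29 ± 0.21) fell as well. The membrane protein Ifitm3 had 5218, 6321, 5392, 5104 and 4368 at 48 h, against 12392, 12241, 13702, 12205 and 12919 at 24 h (-1.27 ± 0.08) and its change was below that of vehicle (difference -0.77, adjusted p = 0.000282, lost with median centring over all arrays). In vehicle Isg15 and Irf7 also fell (-1.21 and -0.71).

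Of the 10 fallen members with a promoter in the table, 4 held the core of the interferon-stimulated response element, GAAANNGAAA, which interferon regulatory factors and STAT complexes bind, against 3.92% of all promoters and 2.86% of those of tested genes. Among members that did not pass, 7 of 22 held it, as did the 1 riser. The 4 are printed as above, with the core on either strand in capitals.
Irf7 (chr1:205799974-205800273, minus strand): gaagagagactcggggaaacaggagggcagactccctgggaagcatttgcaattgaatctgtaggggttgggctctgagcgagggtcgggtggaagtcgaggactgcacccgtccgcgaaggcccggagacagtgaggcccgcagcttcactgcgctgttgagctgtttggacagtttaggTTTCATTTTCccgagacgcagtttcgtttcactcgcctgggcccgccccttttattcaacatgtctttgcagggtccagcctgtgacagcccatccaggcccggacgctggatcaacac
Oas1a (chr12:41330216-41330515, plus strand): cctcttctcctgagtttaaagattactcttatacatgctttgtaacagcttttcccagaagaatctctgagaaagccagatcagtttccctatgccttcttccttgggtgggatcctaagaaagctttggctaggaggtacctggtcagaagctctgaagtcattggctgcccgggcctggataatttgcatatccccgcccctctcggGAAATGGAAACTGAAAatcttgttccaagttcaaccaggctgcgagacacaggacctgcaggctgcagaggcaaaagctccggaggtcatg
Ifitm3 (chr1:205541709-205542008, minus strand): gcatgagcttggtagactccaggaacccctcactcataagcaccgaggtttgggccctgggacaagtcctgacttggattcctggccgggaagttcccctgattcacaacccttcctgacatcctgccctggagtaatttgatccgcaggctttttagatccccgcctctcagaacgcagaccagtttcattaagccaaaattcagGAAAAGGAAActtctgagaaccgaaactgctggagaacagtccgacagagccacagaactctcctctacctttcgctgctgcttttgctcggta
Ifi27 (chr6:128355062-128355361, plus strand): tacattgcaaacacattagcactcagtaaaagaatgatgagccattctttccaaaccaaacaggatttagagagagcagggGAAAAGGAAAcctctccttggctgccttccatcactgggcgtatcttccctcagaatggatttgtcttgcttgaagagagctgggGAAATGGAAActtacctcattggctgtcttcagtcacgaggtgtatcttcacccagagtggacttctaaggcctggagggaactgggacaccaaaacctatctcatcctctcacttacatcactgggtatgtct
Oas1a holds 2 overlapping copies next to its start and Ifi27 holds 2 apart. Beside the falls of Irf7, Oas1a and Ifitm3 given above, Ifi27 changed by -0.16 ± 0.05 with overlapping wells.

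Some macrophage transcripts fell too. Of 14 measured Kupffer cell and macrophage markers 7 fell and none rose, with a median of -0.43 at 8 µM and -0.43 in vehicle, and none differed from vehicle by the test. The complement subunit C1qb had 267, 209.8, 266, 179.6 and 365 at 48 h, against 579.7, 592, 726, 675 and 980.0 at 24 h (-1.42 ± 0.20). All its 48 h values but 365 lay below the detection filter, and the change was -1.55 to -1.27 over its alternatives. Cd74, the class II invariant chain of antigen-presenting cells, had 76.9, 146, 70.8, 70.8 and 67.7 at 48 h, against 342, 424, 432, 405 and 397 at 24 h. It fell by 2.07 ± 0.28, a size that depends on the pseudocount (-2.26 to -1.65 over its alternatives), since all 48 h values lay below the detection filter. The defining markers Clec4f, Cd163, Csf1r and Cd68 did not pass: Clec4f gave -0.52, Cd163 -0.42, Csf1r -0.22 and Cd68 0.03. Summed over the list, signal was 21796 to 24066 over the 48 h wells, against 30262 to 33007 over the 24 h wells, and no marker was at 0. Of 10 endothelial markers 2 fell, of 10 stellate and fibroblast markers 1 fell, and of 6 lymphocyte markers none passed, where 7.88% of all genes fell. The part of such cells in the fall of the inflammatory genes was not tested.

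A gene of heme synthesis and one of heme breakdown both rose. Alas1, the rate-limiting enzyme of heme synthesis, had 12604, 11002, 11793, 11542 and 12672 at 48 h, against 6346, 6559.6, 7318, 5971 and 6829 at 24 h, without overlap (0.85 ± 0.06), and its change exceeded that of vehicle by 0.79 (adjusted p = 0.000442). Hmox1, heme oxygenase, had 54312, 51308, 49476, 46379.6 and 40813 at 48 h, against 27976, 27426, 29039.9, 26597 and 31303 at 24 h (0.76 ± 0.07), likewise beyond vehicle (0.68, adjusted p = 0.00252). Of 27 iron and heme genes 7 rose and 3 fell. This count and the next stand against 9.17% of all genes rising and 7.88% falling. The iron and heme fallers were Cp, hemopexin (Hpx) and the iron hormone hepcidin (Hamp, -0.87, and -0.88 in vehicle). NRF2 and antioxidant genes were mixed, with 8 risers, among them Gclc (0.41) of glutathione synthesis and Akr7a3 (0.62), and 6 fallers of 31, among them Nqo1 (-0.24). Leaving out any one of 4 arrays (48 h replicates 1 and 2, 24 h replicates 2 and 4) left 3 fallers there.

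The autophagy and lysosome list had 11 risers and 2 fallers among 30, against 9.17% and 7.88% of all genes, led by the lysosomal protective protein Ctsa (0.52 ± 0.05), the sialidase Neu1 (0.48) and cathepsin D, Ctsd (0.45). Without 48 h replicate 1, or without 48 h replicate 3, the count of risers was 7. Serine synthesis enzymes Psat1 (0.84 ± 0.09) and Phgdh (0.58 ± 0.09) rose. Amino acid breakdown had 12 fallers and 3 risers of 38, with histidine ammonia-lyase (Hal, -1.19) lowest and ornithine aminotransferase (Oat, 0.79) highest. Bile acid synthesis and transport had 5 fallers of 20, among them the phospholipid exporter Abcb4 (-0.60), the bile acid importer Slc10a1 (-0.57) and the bile acid receptor Nr1h4 (-0.52).

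Of 32 hepatocyte transcription factors 4 fell and none rose. The master regulator Hnf4a and Foxa1 fell (-0.44 ± 0.06 and -0.41 ± 0.12), but the other 2 probe sets of Hnf4a gave 0.15 and 0.22 and did not pass. Cebpa gave 0.07. In the matrix and cytoskeleton list 7 of 41 rose, such as the actin-binding Tagln2 (0.72), and 5 fell, such as fibronectin (Fn1, -0.87) and S100a6 (-1.03). Ribosomal proteins had 1 faller of 22, cell cycle genes 3 fallers and 1 riser of 36, and proteasome subunits 5 fallers and 1 riser of 35, against 7.88% of all genes falling and 9.17% rising. The proteasome had 1 faller when 48 h replicate 4 was left out, and 2 or 3 when any one of 6 other arrays was left out. Among circadian genes Dbp and Nr1d2 (0.30) rose and Rora (-0.29) fell, and Nr1d1 and Per2 gave 0.09 and -0.07 without passing.

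**Figure D5:**
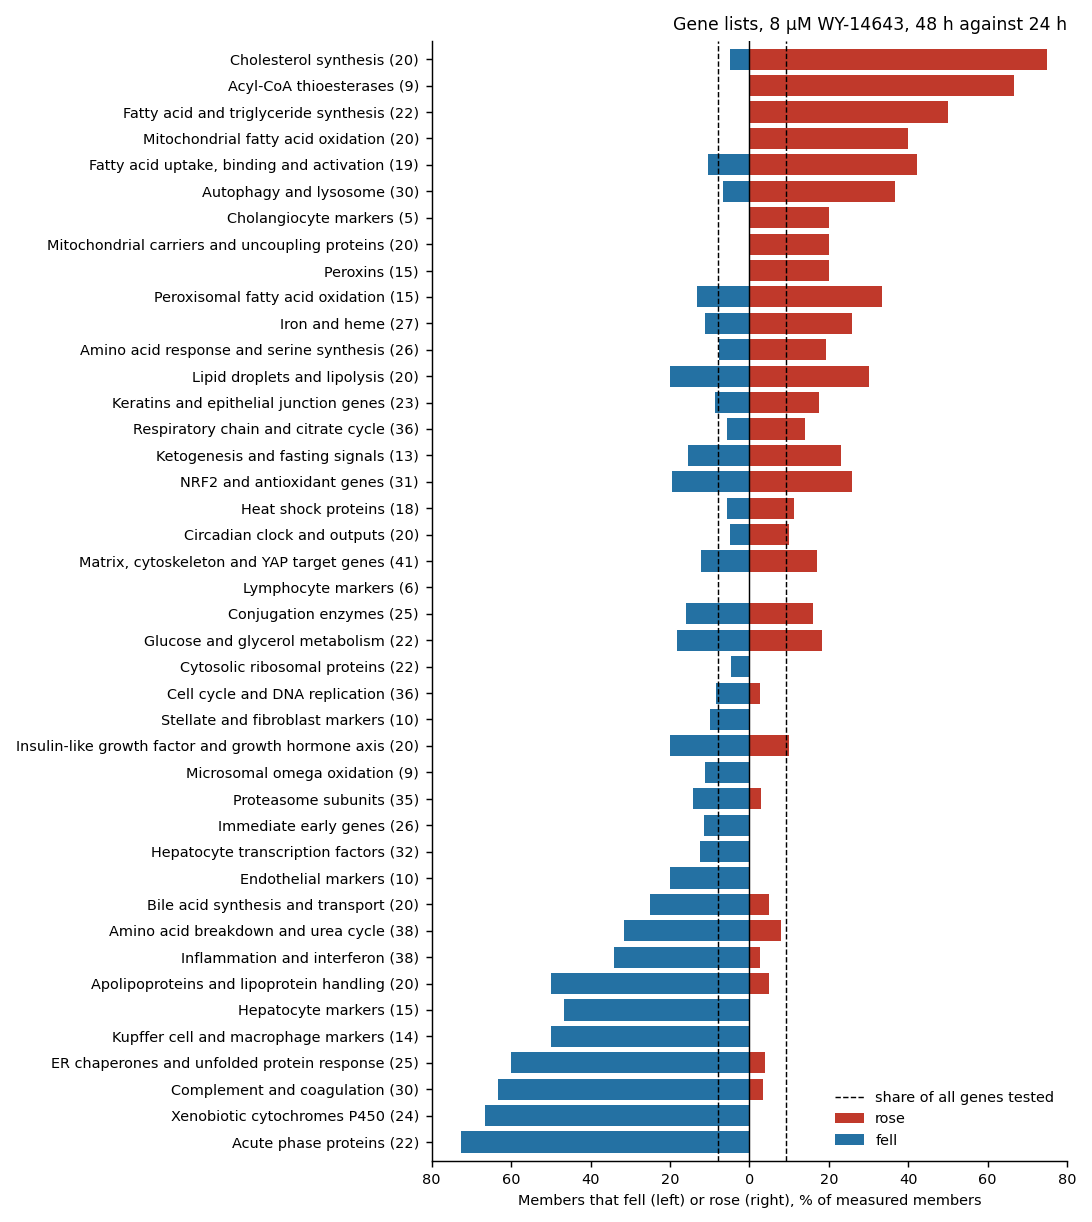
Share of measured members of 42 gene lists that rose (right, red) or fell (left, blue) from 24 h to 48 h at 8 µM, with the number of measured members in brackets and dashed lines at the shares over all genes tested, 9.17% and 7.88%. Cholesterol synthesis is at the top and acute phase proteins, cytochromes P450, complement and ER chaperones are at the bottom.

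Genes that respond to the compound were also followed as a group, defined on arrays outside this comparison: those at least 2-fold higher or lower at 200 µM than in vehicle at 24 h. Of 211 raised genes 70 rose at 8 µM between the times (33.2%) and 12 fell (5.69%), against 9.17% and 7.88% of all genes. Their median was 0.13 at 8 µM and 0.13 in vehicle, or 0.11 in vehicle without the array that stood apart. The change was above that of vehicle for 14 of the 211 and below it for 4 (0.935% and 0.84% of all genes). Without the array that stood apart these counts were 20 and 7 (1.83% and 2.17% of all genes), and with median centring over all arrays 3 and 0. The 24 h vehicle arrays also served to define these groups. Of 156 lowered genes 19 rose (12.2%) and 25 fell (16%), with a median of -0.05 at 8 µM and -0.03 in vehicle. The change was above that of vehicle for 5 of the 156 and below it for 14, beside the same shares of all genes (0.935% and 0.84%). Without the array that stood apart these counts were 6 and 20 (1.83% and 2.17% of all genes), and with median centring over all arrays 0 and 2. Without the 48 h replicate 5 array the raised group had 20 fallers in place of 12.

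Beyond the genes already named, Npy, the precursor of neuropeptide Y, had one of the clearest differences from vehicle. Its signals were 1082, 1238, 1139, 1071 and 1016 at 48 h, against 3283, 2730.3, 2752, 2595 and 2649.8 at 24 h. It fell by 1.32 ± 0.08, whereas vehicle wells rose by 0.63 ± 0.08, a difference of -1.95 (adjusted p = 2.38e-11). Trim66 and Prr15l also differed from vehicle (-2.75 and -2.39), but their signals at 48 h, at most 80.5 and 52.5, were below the detection filter, and Prr15l did not pass within the 8 µM wells (-0.87, adjusted p = 0.43) while it rose in vehicle (1.51). Against 200 µM the vitamin E-binding plasma protein afamin (Afm) fell less, with -0.70 ± 0.07 at 8 µM and -1.32 at 200 µM (adjusted p = 0.00152). The nuclease Dnase1l3 rose by 0.24 ± 0.07, and fell at 200 µM (-0.51, adjusted p of the difference 0.00492). Neurl3, a ubiquitin ligase, fell by 0.21 and rose at 200 µM (0.38, adjusted p = 0.00152), and Cyp2c6v1 changed by -1.07 at 8 µM against -0.45 at 200 µM (adjusted p = 0.00281).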

How the data were processed

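RNA of each well was hybridised to one rat expression array, and the authors deposited one linear signal intensity per probe set, made with MAS5 per the submitters' processing notes. The version and scaling target are not given in the sources used here, and the 2% trimmed mean was 1500.45 to 1500.7 on all 30 arrays. Depth has no counterpart on arrays, and 5 wells per group limit the precision. Files were read as deposited, and log2 (signal + 16) was taken with no further scaling. A probe set was kept when its signal passed 281.361, the 40th percentile of all values, on at least 5 of the 30 arrays. Of 31099 probe sets 20832 carried 1 gene symbol in the platform annotation, and the brightest kept probe set stood for its gene.

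limma 3.58.1 in R 4.3.3 with a variance trend was fitted to the 10 arrays at 8 µM, with Benjamini-Hochberg adjustment over 11546 genes. Vehicle and 200 µM had their own fits of 10 arrays, and differences of time changes came from fits of 20. In simulated data with 200 changed genes among 11546, this comparison recovered 22.4%, 62.7% and 87.9% of changes of 1.25-, 1.5- and 2-fold, and 7 of 122 calls were false. The real data gave 1969 calls, so the adjusted threshold was stricter in the simulation. Its shares are over genes of any spread and are not the power for a named gene. Named genes were the 15 largest rises and 15 largest falls among called genes without overlap, the 4 members with the largest statistic in each of 42 lists, and the 10 largest differences from vehicle and from 200 µM. Further list members are given with their test. The members and lists were chosen with earlier results of these data known. Of 1072 listed genes 893 were measured, 59 did not pass the filter and 120 had no probe set of their own. Promoters came from RefSeq, build GRCr8, and figures were drawn with matplotlib 3.10.9. Alternatives changed the pseudocount, filter, scaling, choice of probe set, variance trend, array weights, a block of 6 consecutive array numbers, arrays fitted and arrays left out.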

Additional observations from a re-analysis of the deposited data

Results flagged for a closer look

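Among 191 named genes in the 2 groups of 8 µM wells, 22 values of 382 groups stood far from the other 4 of their group, and chance sets about 1 in 20 groups apart. At 48 h these were Gstp3 in replicate 2 (589, others 122 to 131), Cd74 in replicate 2 (146, others 67.7 to 76.9), Itih4 (11400, others 9390 to 9920) and Ms4a1 (156, others 429 to 609) in replicate 3, Cyp2c6v1 in replicate 4 (7150, others 8830 to 9380), and Crat (15700, others 12600 to 13200) and Psat1 (7500, others 10100 to 11500) in replicate 5. At 24 h replicate 1 held 7 of them: Cyp4a3 (46100, others 50100 to 51800), Apoc4 (12300, others 13700 to 14200), Akr7a3 (22300, others 25600 to 26900), Rora (1370, others 1560 to 1590), Igfbp4 (4050, others 2710 to 2830), Cd14 (12800, others 14700 to 15300) and Npy (3280, others 2590 to 2750). Replicate 2 held Epb41l3 (138, others 254 to 299), Sncb (31.9, others 194 to 301) and Mup5 (44900, others 34300 to 36700). Replicate 3 held Gstp3 (1200, others 1550 to 1670) and Idh2 (5530, others 6010 to 6180), and replicate 5 held Cyp3a2 (11500, others 7960 to 8790), Lss (2880, others 2250 to 2390) and Hexa (4450, others 4120 to 4170). The cause of these departures was not tested.

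The largest differences in time change between 8 µM and vehicle wells, in log2, were those of Il1r2 (-3.00), Trim66 (-2.75), Prr15l (-2.39), Mapk13 (2.21), Dbp (2.17), Cyp2c11 (-2.11), Npy (-1.95), Eno2 (1.67), A2m (-1.65) and Hrg (-1.48). Mapk13 did not pass in 15 of 27 alternatives and Prr15l in 7 of 28. The largest differences between 8 µM and 200 µM were those of Sdf2l1 (-1.27), Cyp2c11 (-1.05), Fabp4 (0.84), Dnase1l3 (0.75), Aqp9 (-0.74), Cyp2e1 (-0.73), Cyp2c6v1 (-0.62), Afm (0.62), Neurl3 (-0.59) and Calr (-0.55), of which Fabp4 did not pass in 5 of 28 alternatives and Cyp2e1 in 3 of 28. All 20 were past the test of the difference itself in the limma fits.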

How the results depend on the processing

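For the 8 µM time change, 1969 genes (1059 higher, 910 lower) became 416 (230 and 186) when a 1.5-fold change was also required. Over 24 other alternatives the counts were 1546 to 2223, with 835 to 1183 higher and 710 to 1073 lower, and without single arrays 1641 to 2039 (886 to 1107 higher, 740 to 932 lower). The 1183 are probe sets and not genes, from the alternative that tested each probe set. The 2223 was reached there and also, in genes, in a fit of 29 arrays without vehicle 48 h replicate 4. The 205 differences from vehicle (108 and 97) became 391 (194 and 197) with quantile normalization, 11 (8 and 3) with median centring, 320 (128 and 192) with median centring and no vehicle 48 h replicate 4, chosen after seeing the data, and 335, with 193 higher, in the fit of all 30 arrays. Leaving out single arrays gave 148 to 461 (71 to 211 higher, 75 to 250 lower): 71 were higher without 8 µM 48 h replicate 1 or 8 µM 24 h replicate 4, and 461 (211 and 250) differed without vehicle 48 h replicate 4. The 20 differences from 200 µM (8 and 12) became 10 (4 and 6) with median centring, 9 (2 and 7) with all 30 arrays and 18 to 26 (6 to 12 higher, 11 to 15 lower) without single arrays. In vehicle, 342 genes became 925 (542 and 383) without 48 h replicate 4. The cause of these shifts was not tested. No result changed sign while past the threshold. Single named genes kept their side of the threshold in 6395 recalculations, lost a call in 268, gained one in 39 and moved in 56, and list counts stayed within 1.5 times in 1962 recalculations and moved further in 238. Rora did not pass in 14 of 25 alternatives, Nr1d2 in 9, Dnase1l3 in 6, Foxa1 in 4, and Trim66 in 5 of 23. Hnf4a did not pass as the mean of its probe sets. With each 6 consecutive array numbers, which hold 1 array of every group, as a block, 1014 genes were higher and 879 lower. The labels name no such block as a batch or pairing.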

Other observations

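The counts below stand against 9.17% of all genes rising and 7.88% falling, and several lie near those shares. Genes of the growth hormone and insulin-like growth factor axis, a liver hormone output, had 4 fallers and 2 risers among 20 measured genes at 8 µM, and in the fit of all 30 arrays no gene of the list passed as a riser. Mitochondrial carriers and uncoupling proteins had 4 risers and no faller among 20. Peroxins, which import proteins into peroxisomes, had 3 risers and no faller among 15, and the respiratory chain and citrate cycle list 5 risers and 2 fallers among 36. Keratins and junction genes had 4 risers and 2 fallers among 23, and immediate early genes 3 fallers and no riser among 26. Glucose and glycerol metabolism and the conjugation enzymes each had 4 risers and 4 fallers, among 22 and 25 genes. Heat shock proteins had 2 risers and 1 faller among 18, and ketogenesis and fasting signals 3 risers and 2 fallers among 13. Of 5 cholangiocyte markers 1 rose, Epcam (0.50 ± 0.05). The amino acid response list had 5 risers and 2 fallers among 26, and 8 risers without 48 h replicate 5.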
